A study of Macaca fascicularis with 6 samples.

Results

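Cycling epithelial cells are described here in cornea of cynomolgus monkeys (Macaca fascicularis) before and after corneal injury. They were chosen by the counts of 12 cell cycle genes: a cell was taken as cycling where MKI67, TOP2A, CDK1, CCNB1, CCNB2, CCNA2, CDC20, BIRC5, CENPF, CENPE, AURKA and AURKB together had 3 or more counts. This rule selected 190 of 7895 cells (2.41%), and all other cells of the same sample served as the comparison. The study took corneal epithelial cells of wild-type animals in 3 groups of 2 samples: uninjured (day 0), day 1 after corneal injury and day 3 after corneal injury. Cells were captured on the 10x Genomics platform, which gives the RNA of each droplet its own barcode, and the full-length cDNA went into HIT-scISOseq, which reads whole transcripts. Each barcode is called a cell below. The labels give no age or wound type, nor whether both samples of a group were taken from separate animals. A p-value here therefore reflects the variation among the samples at hand, some of which may be technical.

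The corneal surface is renewed by cells that divide in the basal layer and at the limbus, the rim of the cornea, and that move inwards and upwards while they differentiate. A dividing cell first makes the enzymes of DNA replication and nucleotide synthesis, and then the kinases, motors and checkpoint proteins that build the spindle, separate the chromosomes and split the cell. KRT5, KRT14 and KRT15 are keratins of basal and limbal cells, KRT12 and KRT3 are the keratins of the differentiated cornea, KRT6A and KRT16 appear in wounded epithelium, and KRT4 and KRT19 are typical of conjunctiva and simple epithelia.

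Most of the selected cells carried several of the selecting genes, and these counts are a description of the choice, not a result. Of the 190 cells, 172 had counts of at least 3 of the 12 genes, 1 had counts of a single gene, and the median sum was 9.5 counts. MKI67, the proliferation antigen, was found in 130 of them (68.4%) and in 30 other cells (0.389%), with 0 counts in all cells of day 1 replicate 2. TOP2A, the topoisomerase that untangles replicated DNA, was found in 123 (64.7%) against 40 other cells (0.519%), and CENPF, a kinetochore protein, in 140 (73.7%) against 131 other cells (1.70%). At the limit of the rule, 30 cycling cells had exactly 3 counts and 74 other cells had exactly 2.

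All 190 cycling cells carried epithelial transcripts, with at least 19 counts in each from a list of 14 epithelial identity genes. None had more counts of immune, fibroblast, melanocyte or vascular markers than of epithelial ones. CD3D and CD163 were at 0 in the cycling cells, PTPRC (the pan-leukocyte CD45) had 2 counts, and the keratocyte gene KERA, the collagen gene COL3A1, the melanocyte genes MLANA, TYR, TYRP1 and DCT and the endothelial genes PECAM1 and VWF were at 0. Other members of these lists were detected in the cycling cells. Of the fibroblast list DCN had 718 counts, LUM 30, COL1A1 16, COL1A2 14 and COL6A3 9, of the melanocyte list KIT had 20 and PMEL 6, and of the immune list LYZ had 35 and HLA-DRA 19. The fibroblast list summed to 1063 and 935 CPM in the cycling cells of day 3 against 687 and 684 CPM in other cells, and its part in the day 3 results was not tested. In the other samples it was at 151 to 684 CPM against 186 to 651.5. The 12 immune markers summed to between 18.7 and 181 CPM (counts scaled to the size of the library) in the cycling cells of 5 samples and to 1213 CPM in those of day 1 replicate 2, where Scrublet called 1 cycling cell a doublet. In the other cells of the 6 samples this sum was between 185 and 294 CPM.

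The cycling cells were deeper than the other cells. Their median count per cell was 4303 and 4955 in the uninjured samples against 2456 and 2972 in other cells, 3653 and 4871 at day 1 against 3254 and 2920, and 5140 and 4906 at day 3 against 4386 and 4065. The median was higher in the cycling cells of 6 of 6 samples, by 1296 counts on average (exact sign-flip permutation test, two-sided p = 0.0312, the smallest that 6 samples allow, adjusted p = 0.0938 over 6 quantities). Genes detected per cell were also higher in 6 of 6 samples, by 579 on average (same p). A rule on summed counts favours deep cells, so the comparison of gene levels below was repeated with 5 other cells of near equal depth for each cycling cell. Mitochondrially encoded transcripts took a higher share of counts in the cycling cells of 3 of 6 samples (exact permutation p = 0.438). Pairs of samples shared 8 barcode sequences, of which 1 belonged to a cycling cell.

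Cycling cells were rare in uninjured epithelium and at day 1, and more frequent at day 3. They were 9 of 1565 cells (0.575%, exact 95% interval 0.263 to 1.09) and 28 of 1417 cells (1.98%, 1.32 to 2.84) in the uninjured samples. At day 1 they were 8 of 1482 cells (0.540%, 0.233 to 1.06) and 8 of 1267 cells (0.631%, 0.273 to 1.24). At day 3 they were 63 of 1096 cells (5.75%, 4.44 to 7.29) and 74 of 1068 cells (6.93%, 5.48 to 8.62). The day 3 samples lay above all 4 others, and day 1 lay within the range of the uninjured samples except for replicate 1, just below it. The intervals are Clopper-Pearson and cover counting error only. In day 1 replicate 2 the selecting genes MKI67, BIRC5, AURKA and AURKB had 0 counts in all cells, as had AURKB in day 1 replicate 1. The rule thus rested on fewer genes at day 1, and the effect on its shares was not tested.

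Group means were 1.28 ± 0.991% uninjured, 0.586 ± 0.0648% at day 1 and 6.34 ± 0.835% at day 3 (SD, n = 2). The day 3 mean was 4.97 times the uninjured mean and 10.8 times the day 1 mean. With 2 samples against 2 an exact permutation test, two-sided, cannot go below p = 0.333, which both day 3 comparisons reached, while day 1 against uninjured gave p = 0.667 by an exact permutation test. Since day 3 cells were deeper, each cell was also thinned to 2000 counts. The expected shares were then 0.742 and 2.15% uninjured, 0.521 and 0.525% at day 1, and 3.78 and 4.77% at day 3, a ratio of 2.96 between day 3 and uninjured and of 8.17 between day 3 and day 1. Both thinned day 1 shares lay below both uninjured ones (exact permutation p = 0.333, the smallest possible). In the same cells before thinning the shares were 0.915 and 2.76%, 0.672 and 0.878%, and 5.91 and 7.05%. The uninjured samples differed more from each other than those of any other group, and without uninjured replicate 2 the uninjured share was 0.575%. Day 3 supplied 137 of the 190 cycling cells (72.1%).

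**Figure D1:**
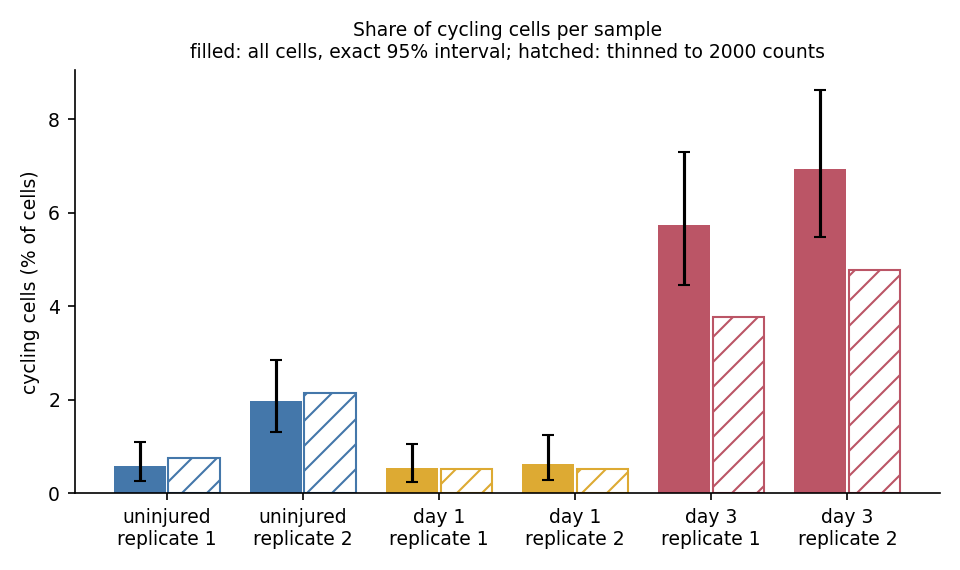
Share of cells with 3 or more counts of the 12 selecting genes, as a percentage of the cells of each sample. Filled bars use all cells with exact 95% intervals, hatched bars the cells thinned to 2000 counts; both day 3 samples (5.75 and 6.93%) stand above the 4 others.

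Other genes of the cell cycle were higher in cells with more selecting counts. A sum of 83 mitotic genes that were not used for the choice was at 1055 CPM in the 7048 cells with 0 selecting counts, 1244 CPM with 1 count and 1718 CPM with 2 counts. It was at 3667 CPM in the 42 cells with 3 to 4 counts, 5429 CPM in the 37 cells with 5 to 7 and 10615 CPM in the 111 cells with 8 or more. A sum of 52 genes of DNA replication and nucleotide synthesis, the S-phase genes, took another course. It stood at 799, 978 and 1531 CPM below the limit and at 3679, 3625 and 3214 CPM above it, over all samples together. By group, the sums above the limit were 2207, 3504 and 2913 CPM uninjured, 4781, 3228 and 3066 CPM at day 1 and 4006, 3687 and 3328 CPM at day 3. The cells just below the limit, with 2 counts, lay nearer to those with 1 count than to those with 3 to 4.

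**Figure D2:**
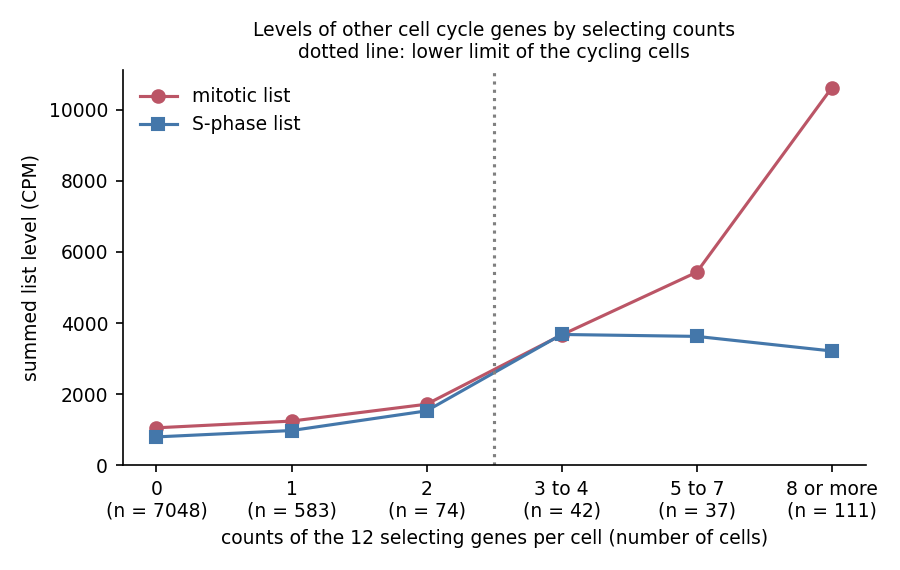
Summed level (CPM) of 83 mitotic genes and 52 S-phase genes, none of them selecting genes, in cells grouped by their counts of the 12 selecting genes over all samples. Mitotic genes climb from 3667 to 10615 CPM among cycling cells while S-phase genes stay between 3214 and 3679 CPM.

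The keratin state of the cycling cells differed between days. Each cell was assigned to the keratin with the most counts in it, out of 13 keratins in the tables, and shares are given with exact 95% intervals and no test. Among the 37 cycling cells of the uninjured samples, 20 were led by KRT12, 6 by KRT5, 5 by KRT15, 3 by KRT14 and 1 by KRT24, and 2 could not be assigned. At day 1, 15 of 16 were led by KRT12 and 1 by KRT5. At day 3, 125 of 137 were led by KRT14, 5 by KRT12, 3 by KRT5, 3 by KRT19 and 1 by KRT6A. KRT12 thus led 54.1% of cycling cells against 39.0% of other cells when uninjured, 93.8% against 52.6% at day 1, and 3.65% against 21.2% at day 3. For KRT14 the figures were 8.11% against 5.87% uninjured, 0% against 13.6% at day 1, and 91.2% against 45.8% at day 3.

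Within a state, the frequency of cycling cells was also counted by day. Of the KRT12-led cells, 20 of 1168 cycled when uninjured (1.71%, 1.05 to 2.63), 15 of 1453 at day 1 (1.03%, 0.579 to 1.70) and 5 of 434 at day 3 (1.15%, 0.375 to 2.67), and these intervals overlap. The samples of a group differed, with 0.982 and 2.51% uninjured, 0.899 and 1.19% at day 1, and 0.469 and 1.81% at day 3. With the corneal keratins grouped the day 3 share was 0.481%. Of the KRT14-led cells, 3 of 176 cycled when uninjured (1.70%, 0.353 to 4.90) and 0 of 373 at day 1, which allows a share of up to 0.804% taken as 3 counts of the total, or 0.984% by the exact interval. At day 3, 125 of 1054 KRT14-led cells cycled (11.9%, 9.97 to 13.97), with 59 of 540 (10.9%) in replicate 1 and 66 of 514 (12.8%) in replicate 2. Thinned to 2000 counts, the day 3 share among KRT14-led cells was 8.04%. In uninjured samples it was 5.46%, from only 53 cells deep enough, so the difference between these 2 days within the KRT14 state moves with depth.

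Other states held few cycling cells. KRT15, a keratin of limbal basal cells, led 767 uninjured cells, of which 5 cycled (0.652%, 0.212 to 1.51), and KRT5 led 481, of which 6 cycled (1.25%, 0.459 to 2.70). By sample these shares were 0.233 and 1.18% for KRT15 and 0.420 and 2.06% for KRT5, higher in replicate 2 for both. The KRT15-led uninjured cells were shallow, with a median of 1555 counts against 3686.5 for KRT12-led ones. Thinned as above, the expected share was 1.74% of 184 KRT15-led cells deep enough, against 1.52% of 1050 KRT12-led cells. In replicates 1 and 2 it was 1.23 and 2.13% against 0.779 and 2.35%. The order of these states thus moves with depth and differs between samples. KRT19-led cells held 0 of 163 uninjured (exact upper limit 2.24%), 0 of 203 at day 1 (1.80%) and 3 of 308 at day 3 (0.974%, 0.201 to 2.82). KRT6A-led cells, a state found after injury, held 0 of 201 at day 1 (exact upper limit 1.82%) and 1 of 161 at day 3 (0.621%, 0.0157 to 3.41), although they were the deepest at day 3 with a median of 6385 counts. With keratins grouped by kind, basal keratins led 16 of 37 cycling cells when uninjured, 1 of 16 at day 1 and 129 of 137 at day 3. In uninjured samples 1.05% of cells led by basal keratins cycled, against 1.72% of those led by corneal keratins. Thinned, these shares were 1.91% and 1.43%, the reverse order.

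**Figure D3:**
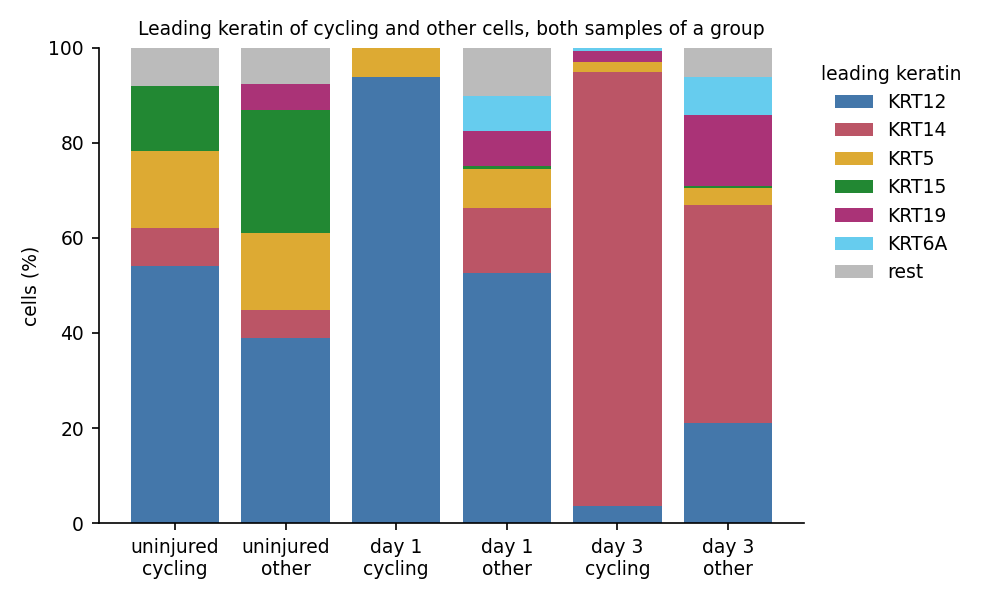
Share (%) of cells by the keratin with the most counts, for cycling and other cells of each group, both samples together. KRT12 leads 93.8% of the 16 cycling cells at day 1 and KRT14 leads 91.2% of the 137 at day 3.

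Gene levels were then compared between the cycling and the other cells of each sample, with counts summed over cells and without the 12 selecting genes. Of 11539 genes tested, 614 were higher (5.32%) and 1140 lower (9.88%) in cycling cells at an adjusted p under the threshold of 0.05. Levels below are CPM scaled by TMM, a scaling that sets most genes level between sums, and changes are log2 values from the fit. The median change over all genes was -0.17. Scaled to totals alone it was 0.10 and the calls split into 1126 higher and 624 lower, so the balance of higher and lower calls depends on the scaling. The count fell from 1754 to 1118 without day 3 replicate 1 and to 1127 without day 3 replicate 2, and was 1319 with other cells of near depth and 878 with DESeq2. The near-depth count came from only 4993 tested genes, and 1062 of its 1319 genes were also among the 1754. Cell cycle genes are tied to the way the cells were chosen, so their counts describe the selected cells and nothing is read from them.

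Of genes that act in mitosis, 23 of 23 tested kinetochore and checkpoint genes were higher (median change 4.87, against -0.17 over all genes), as were 21 of 21 spindle motors and microtubule regulators (median 4.72) and 9 of 9 cytokinesis genes (median 5.85). The kinetochore list summed to 2316 and 1982 CPM uninjured, 936 and 965 CPM at day 1 and 1458 and 1419 CPM at day 3 in cycling cells, by totals, and to between 36.8 and 120 CPM in other cells. Of its 23 genes, 12 and 10 had counts in the cycling cells of day 1 and 14 and 11 in the other cells of day 1. In the uninjured and day 3 samples it was 18 to 23 in cycling and 19 to 22 in other cells. The day 1 sums thus cover fewer genes. ANLN, the scaffold of the contractile ring, was at 116 to 274 CPM over the 6 samples (median 230) against 1.60 to 7.41 CPM (median 3.40) in other cells, a change of 5.75 ± 0.24 (SE). PRC1, which bundles microtubules between the separating chromosomes, was at 46.3 to 362 CPM against 1.60 to 4.01. TPX2, which activates the spindle kinase Aurora A, was at 42.5 to 204 CPM against 1.03 to 2.98. For these 3 genes no sample of cycling cells overlapped the other cells.

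Within the cell cycle engine 14 of 16 genes were higher and 0 lower (median 3.41), among them PTTG1, or securin, at 170 to 534 CPM against 29.1 to 43.2. FOXM1, a transcription factor of mitotic genes, was higher in 6 of 6 samples at low levels of 33.2 to 95.3 CPM against 0.617 to 1.59. PLK1, the polo-like kinase, was higher in 5 of 6 samples and had 0 counts in the cycling cells of the remaining one. Condensin and cohesin genes were higher in 12 of 14, with SMC2 at 76.3 to 263 CPM against 4.54 to 16.7 and SMC4 at 191 to 344 CPM against 22.0 to 35.8.

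Of the replication licensing and fork genes, 33 of 38 were higher (median 2.12), and their sum was 1552 to 2295 CPM in cycling cells. Nucleotide synthesis genes were higher in 8 of 14. RRM2, the small subunit of ribonucleotide reductase, was at 21.3 to 296 CPM against 1.03 to 10.8, and TYMS, thymidylate synthase, at 123 to 512 CPM (median 169) against 6.69 to 74.7 CPM (median 10.5). DNA repair genes were higher in 14 of 16. Of the chromatin and lamina genes, 12 of 13 were higher. HMGB2, a DNA-bending protein, was at 234 to 1039 CPM against 13.4 to 77.7 (change 3.75 ± 0.19), and STMN1, a microtubule destabiliser, at 450 to 1307 CPM against 28.5 to 55.7 (4.05 ± 0.19). The alpha-tubulin TUBA1A was at 2085 to 2801 CPM against 967 to 1662, higher in 6 of 6 samples (change 0.95), and TUBB2A was lower (change -0.76).

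Genes that hold the cycle back went both ways. Among 13 CDK inhibitors and antiproliferative genes, 9 were lower and 3 higher. CDKN2B, an inhibitor of the G1 kinases CDK4 and CDK6, was at 23.2 to 108 CPM (median 55.2) against 78.9 to 317 CPM (median 258), lower in 6 of 6 samples (change -1.67 ± 0.24, adjusted p = 1.81e-10). BTG2, an antiproliferative gene, was at 23.2 to 379 CPM against 383 to 917, and the 2 ranges did not overlap (change -1.49). The related inhibitors CDKN2C and CDKN2D were higher, with changes of 2.43 and 1.33. Of 18 G1 cyclins and E2F factors, 7 were higher and 1 lower; CDK2 was at 38.1 to 139 CPM against 23.8 to 38.9, and E2F8, a repressor of the E2F family, had a change of 2.90.

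Genes of corneal differentiation and of the ocular surface outside the cell cycle were mostly lower in cycling cells. Of 17 corneal differentiation genes tested, 12 were lower and 1 higher (median change -1.10), and of 11 genes of the superficial layers and cornified envelope, 9 were lower (median -1.61). Of 6 conjunctival and simple epithelial genes, 5 were lower (median -2.49), as were 7 of 8 wound keratins and alarmins (median -2.17). By totals, the corneal differentiation list summed to 19968 and 17602 CPM in cycling cells of day 3 against 32265 and 30867 CPM in other cells. At day 1 it was at 36965.5 and 40109 against 36067 and 40316 CPM, and uninjured at 44258.5 and 36491 against 42215 and 42784 CPM. This sum was thus lower in both samples of a group only at day 3. Since the cycling cells were led by other keratins than the rest, the comparison was repeated within KRT12-led cells (uninjured and day 1) and KRT14-led cells (day 3), an alternative chosen after seeing the data. Of 10196 genes tested there, 380 were higher and 678 lower. In this setting 11 of 17, 4 of 8, 3 of 6 and 6 of 7 of these lists' genes were lower.

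KRT3, the partner keratin of KRT12, was at 310 to 1564 CPM (median 839) in cycling cells against 2605 to 4313 CPM (median 3829) in other cells. The ranges did not overlap and the change was -2.12 ± 0.18 (adjusted p = 1.17e-30), or -2.44 within the same leading keratin. ELF3, an epithelial transcription factor of late differentiation, was at 209 to 729 CPM against 764 to 1392 (change -1.49, and -1.27 within the same keratin). ALDH1A3, which makes retinoic acid, was at 0 to 83.6 CPM against 23.6 to 505 (change -2.98, and -1.502 within the same keratin). AQP5, a water channel of the differentiated cornea, was at 0 to 178 CPM against 429 to 1088 (change -3.55), but within the same leading keratin its change was -0.83 (adjusted p = 0.142).

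Among surface and conjunctival genes, AGR2, a protein folding factor of secretory cells, was at 63.8 to 239 CPM against 385 to 633 (change -1.499, and -1.45 within the same keratin). KRT19 was at 69.5 to 1136 CPM against 1750 to 4763 (change -2.57), and KRT4 at 0 to 384 CPM against 739 to 1269 (change -2.91). The membrane mucin MUC1 and the superficial keratin KRT78 had changes of -2.41 and -3.53, which within the same leading keratin were -0.46 and -0.60 and did not pass the test. For the cornified envelope precursor IVL the change was -2.48, and with DESeq2 its adjusted p was 0.0505.

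The alarmins named here were lower in the cycling cells of every sample. S100A9, which pairs with S100A8 in calprotectin, was at 0 to 3119 CPM (median 86.9) against 110 to 15488 CPM (median 5010), lower in 6 of 6 samples (change -3.63, and -2.05 within the same keratin). S100A8 had a change of -3.28 and PI3, the elastase inhibitor elafin, one of -2.44. S100P, another S100 protein, had 0 counts in the cycling cells against 1924 in other cells, at least 52.5-fold lower than expected from the other cells of the same samples. SERPINA3, a protease inhibitor, was likewise at 0 against 963 counts, at least 10.8-fold lower. Neither of these genes without counts passed with DESeq2. SLC6A14, an amino acid transporter, had 9 counts against 8246 (change -4.88), and KRT23, a keratin of simple epithelia, had 4 against 5143 (change -5.63).

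**Figure D4:**
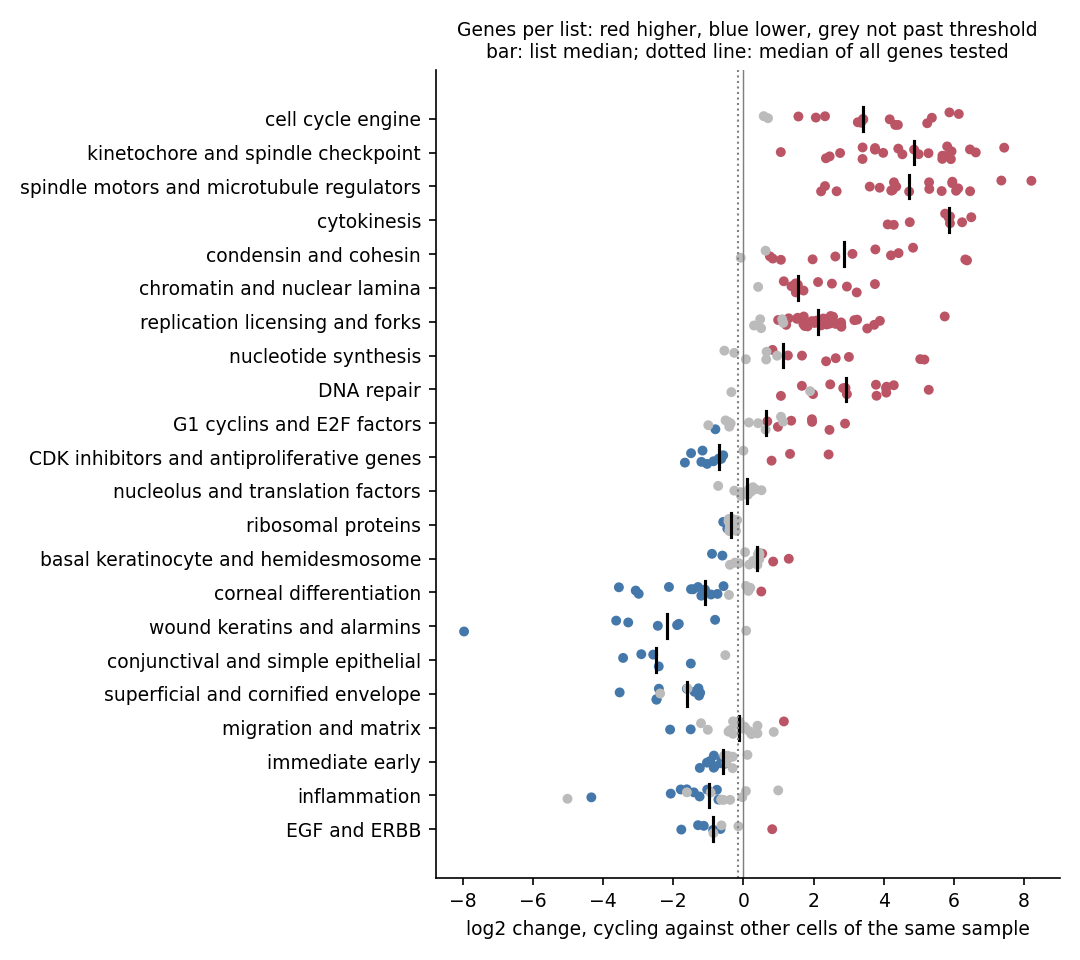
Log2 change between cycling and other cells of the same sample for each tested gene of 22 lists; red and blue points passed the adjusted threshold, black bars are list medians and the dotted line is the median of all genes (-0.17). The mitotic lists lie to the right by their link to the selection, and the corneal, wound, conjunctival and superficial lists lie mostly to the left; the point at -7.96 is LCN2, at 0 counts in cycling cells.

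The keratins themselves followed the day. KRT12 in cycling cells was at 10603 and 10282 CPM uninjured, 8063 and 10310 CPM at day 1, and 2614 and 3303 CPM at day 3. In other cells it stayed at 13415 and 13802, 15478 and 16505, and 12594 and 12877 CPM. The 2 kinds of cell were thus nearest in the uninjured samples and furthest apart at day 3.

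KRT14 in cycling cells was at 1220 and 1465 CPM uninjured, 672 and 553 CPM at day 1 and 27753 and 26768 CPM at day 3. Other cells had 1454 and 1258, 1503 and 1517, and 23176 and 21209 CPM. It was lower in the cycling cells at day 1 and higher at day 3 in both samples. Over all samples its change of -0.24 did not pass the test and was 0.14 by totals. Against other cells of near depth the change was 0.74, which passed in the opposite direction (edgeR adjusted p = 0.0454).

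KRT6A was at 0 and 11.7 CPM uninjured, 741 and 446 CPM at day 1, and 8912 and 9619 CPM at day 3, against 137 and 127, 4151 and 4650, and 17456 and 16964 CPM in other cells. It was lower in the cycling cells of 6 of 6 samples (change -1.89 ± 0.20, and -2.06 within the same leading keratin). KRT5 was at 3422 to 12992 CPM against 5894 to 17135, with a change of -0.60 that was -0.22 (adjusted p = 0.162) by totals. KRT15 was at 42.5 to 2801 CPM against 324 to 4050 (change -0.90), but 0.02 within the same leading keratin. That setting leaves out the KRT15-led cells, so it cannot decide on KRT15 itself. KRT17 had a change of 0.08 (adjusted p = 0.863).

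**Figure D5:**
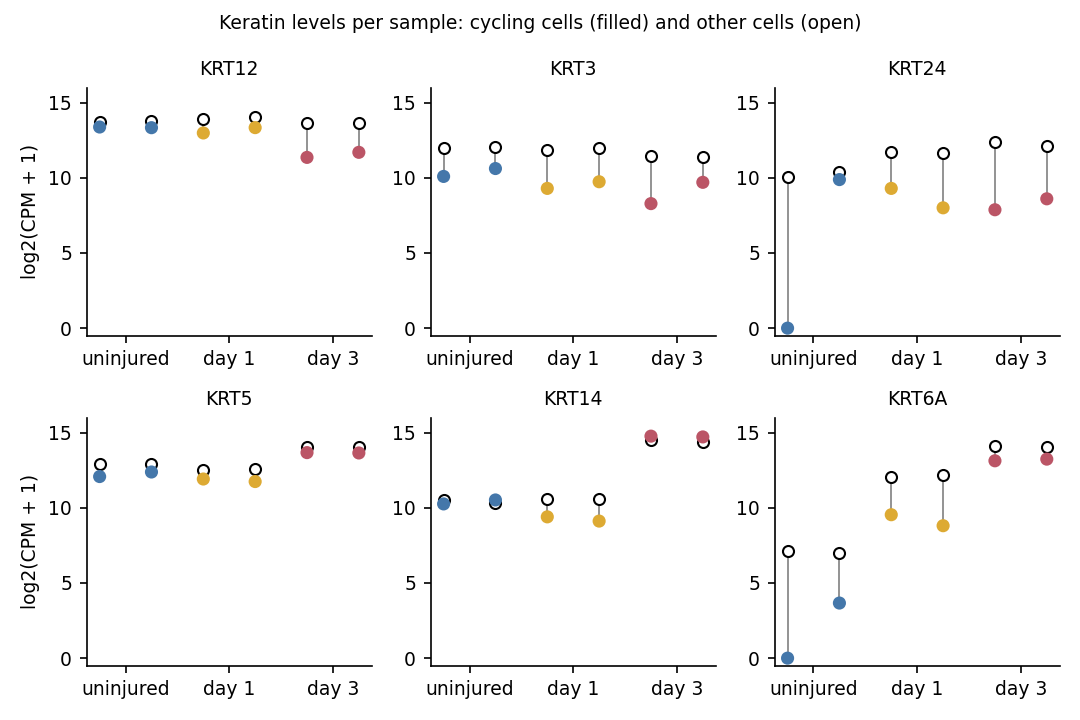
Levels of 6 keratins per sample as log2(CPM + 1), filled points for cycling and open points for other cells of the same sample, joined by a line. KRT12 parts at day 3 (2614 and 3303 against 12594 and 12877 CPM), KRT6A and KRT3 are lower in cycling cells of every sample, and KRT14 crosses between day 1 and day 3.

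Of 17 basal keratinocyte and hemidesmosome genes, 3 were higher and 2 lower (10 higher and 1 lower by totals), with a median change of 0.40. The membrane protein CAV1, the integrin ITGA3 and the laminin chain LAMA3 were higher, with changes of 1.29, 0.85 and 0.54, but none of these 3 passed within the same leading keratin. Of 10 limbal progenitor genes, 4 were lower and 1 higher. GPHA2, a secreted marker of limbal stem cells, had 4 counts in cycling cells against 2219 in other cells (change -3.79), with DESeq2 giving 0.76. PENK, which encodes a precursor of enkephalin peptides, was at 0 against 1080 counts, at least 7.83-fold lower, and did not pass with DESeq2.

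Of 19 immediate early genes, 12 were lower and 0 higher (5 lower and 1 higher by totals). Within the same leading keratin 7 of 19 were lower, against 678 of all 10196 genes tested in that setting. ZFP36, which degrades short-lived mRNAs, was at 397 to 1068 CPM (median 666) against 910 to 1672 CPM (median 1401), lower in 6 of 6 samples (change -1.04, adjusted p = 1.29e-07). ATF3, a stress-induced factor, was at 139 to 648 CPM against 421 to 1203 (change -0.95). Of 18 inflammation genes, 9 were lower and 0 higher (2 lower with DESeq2). The sum of the inflammation list by totals was higher in the cycling cells of 4 of 6 samples, at 5134 and 7470 CPM against 3413 and 3654 CPM at day 1, and lower in both day 3 samples, at 1390 and 1403 CPM against 2058 and 2099 CPM. The neutrophil attractant CXCL8 was at 0 to 38.3 CPM against 15.7 to 129 (change -2.07). PLAUR, the urokinase receptor, was at 0 to 46.3 CPM against 18.8 to 317 (change -2.09).

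Of 9 EGF family ligands and receptors, 5 were lower and 1 higher. AREG, a ligand of the EGF receptor, was at 57.2 to 383 CPM against 411 to 805, with no overlap (change -1.29), and the receptor ERBB3 at 21.3 to 75.9 CPM against 109 to 144 (change -1.13). NRG1, a ligand of ERBB3, was higher (change 0.82), which did not pass within the same leading keratin. Of 12 nucleolar and translation genes 0 passed the test in either direction by edgeR (3 were higher by totals), and of 16 ribosomal protein genes 2 were lower and neither passed by totals. Of 23 migration and matrix genes, 1 was higher and 2 lower (5 and 2 by totals), and of 9 glycolysis genes 0 were higher and 1 lower (4 and 1 by totals). The glycolysis list summed to 4315 to 6092 CPM in cycling cells, by totals, against 3333 to 4616 CPM in other cells, and was higher in cycling cells of all 6 samples. VIM, the intermediate filament of mesenchymal and migrating cells, had a change of 1.15 that came from 3 of 6 samples and did not pass within the same leading keratin, with DESeq2, or without the doublet or day 1 replicate 2. Of 14 epithelial identity genes, 11 were lower, among them PERP, a desmosomal protein, at 510 to 1444 CPM against 2356 to 2983.

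Between days, the cycling cells themselves were compared as 1 sum per sample. These sums were small, with 25756 to 295107 counts, and 2083 genes passed the filter on low counts. With 1 sample left out, 931 to 4366 genes passed this filter. The counts of genes given below without a sample thus have other totals and are not plain losses or gains. The levels below are scaled over the 6 sums of cycling cells and so differ from those above, and folds take the counts of both samples of a group together. The number of cells behind a sum was 8 or 9 in 3 of the 6 samples. Levels of the day 1 and day 3 cycling cells were set against the same 2 uninjured samples. The 5 highest and 5 lowest genes of each day comparison were named only from genes whose 2 groups did not overlap. Such non-overlap is part of the choice and not a result.

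Day 1 against uninjured asked how the cycling cells differed 1 day after injury. Of 2083 genes, 84 were higher (4.03%) and 94 lower (4.51%). Of 5 tested wound keratins and alarmins 2 were higher, of 12 migration and matrix genes 5 were higher and 1 lower, and of 17 immediate early genes 8 were lower and 1 higher. PTGS2, the inducible cyclooxygenase, was at 5509 and 7022 CPM at day 1 against 917 and 1164 CPM, 5.65-fold higher (adjusted p = 4.02e-10). SFN, the 14-3-3 sigma protein that restrains the G2 to M step, was at 6681 and 9988 CPM against 1630 and 1705, 4.96-fold higher. Both day 1 samples lay above both uninjured samples for these genes. How many of all 2083 genes did so was not counted, so nothing is read from it.

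Several genes were higher at day 1 by larger folds. CTSL, a lysosomal protease, was at 1244 and 1943 CPM against 136 and 45.8, 24.6-fold higher. CYP26B1, which breaks down retinoic acid, was at 1279 and 1023 CPM against 0 and 55.0, 26.5-fold higher. PLAU, the urokinase protease, was at 711 and 1500 CPM against 102 and 36.7, 22.0-fold higher. KRT6A had 53 counts against 2, a ratio of 63.9 with a counting interval of 16.8 to 541. For each of these genes both day 1 samples lay above both uninjured samples, a condition for naming the highest and lowest genes.

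KRT15 was at 107 and 68.2 CPM at day 1 against 2717 and 4399 CPM, 46.5-fold lower (adjusted p = 4.02e-10). TXNIP, the thioredoxin-binding protein, had 0 counts against 86, at least 11.9-fold lower, and PCK1, an enzyme of gluconeogenesis, 0 against 102, at least 14.1-fold lower. PAX6, the master regulator of eye development, was at 213 and 375 CPM against 883 and 1100, 3.56-fold lower. HMGB2 was at 569 and 375 CPM against 1155 and 1631, 3.26-fold lower, and STMN1 at 1066 and 818 CPM against 1834 and 2053, 2.14-fold lower. Without uninjured replicate 2, HMGB2, STMN1 and PAX6 did not pass, and STMN1 also did not pass with DESeq2 or without day 1 replicate 2.

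Within KRT12-led cycling cells, an alternative chosen after seeing the data, 124 genes passed, and KRT19, at 107 and 205 CPM against 543 and 889 in the full comparison, had a change of 0.24 in place of -2.32. VIM had 25 counts at day 1, all from replicate 2, and 0 in uninjured cycling cells, and it did not pass without the cell that Scrublet called a doublet. The count of 178 genes was 59 without uninjured replicate 2, 117 and 101 without day 1 replicate 1 or 2, 113 and 110 without day 3 replicate 1 or 2, and 68 with DESeq2.

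Day 3 against uninjured asked how the more frequent cycling cells of day 3 differed. Of 2083 genes, 346 were higher (16.6%) and 329 lower (15.8%); by totals the split was 263 higher and 406 lower. All 5 tested wound keratins and alarmins were higher, as were 10 of 12 migration and matrix genes (1 was lower) and 14 of 16 ribosomal protein genes (5 with DESeq2). Lower were 13 of 17 immediate early genes and 9 of 15 corneal differentiation genes (1 was higher). The 2 groups also differed in leading keratin, KRT14 at day 3 and mostly KRT12 before injury, and the part of this in the changes was not tested, since too few uninjured cycling cells were led by KRT14.

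KRT14 was at 34060 and 32894 CPM at day 3 against 2173 and 2300 CPM, 14.7-fold higher (adjusted p = 4.58e-17). S100A2, an S100 protein found in basal keratinocytes, was at 5952 and 7698 CPM against 306 and 266, 25.1-fold higher. CSTA, a protease inhibitor of the cornified envelope, was at 1636 and 1519 CPM against 34.0 and 128, 14.5-fold higher. For each of these genes both day 3 samples lay above both uninjured samples, a condition for naming the highest and lowest genes.

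Several genes were seen in day 3 cycling cells and had almost no counts before injury. S100A9 was at 3828 and 2236 CPM against 0, at least 137.5-fold higher, and S100A8 at 1389 and 914 CPM against 0, at least 52.4-fold higher. KRT6A had 5743 counts against 2, a ratio of 790.5 with a counting interval of 219 to 6529. VIM was at 1495 and 1125 CPM against 0, at least 59.9-fold higher, although DESeq2 gave it an adjusted p of 0.105. KRT7, a simple epithelial keratin, was at 479 and 349 CPM against 0, at least 18.9-fold higher, and FN1, fibronectin, at 273 and 230 CPM against 0, at least 11.6-fold.

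KRT12 was at 3209 and 4059 CPM at day 3 against 18882 and 16148 CPM, 4.57-fold lower, and KRT15 at 624 and 449 CPM against 2717 and 4399, 7.62-fold lower. CRTAC1, a secreted matrix protein, was at 132 and 92.8 CPM against 2479 and 2309, 21.1-fold lower, and PCK1 had 0 counts against 102, at least 123.5-fold lower. NR4A1, an immediate early nuclear receptor, was at 282 and 249 CPM against 1562 and 1420, 5.49-fold lower, and KLF4, a differentiation factor that can halt the cycle, at 423 and 576 CPM against 1223 and 1494, 2.85-fold lower. PAX6 was at 308 and 305 CPM, 3.44-fold lower.

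Cell cycle genes are given for these days as values only, since the cells were chosen by genes of the same kind. STMN1 was at 705 and 553 CPM at day 3 against 1834 and 2053 CPM, 3.22-fold lower (adjusted p = 1.41e-07), and ARHGAP11A, a regulator of the cleavage furrow, at 76.9 and 70.6 CPM against 441 and 257, 4.03-fold lower. HMGB2 was at 756 and 665 CPM against 1155 and 1631, 2.16-fold lower, though not past the threshold without uninjured replicate 2. Of 11 tested spindle genes 5 were lower, and of 5 cytokinesis genes 3 were lower, with none of the 5 spindle genes passing under DESeq2. TYMS was at 628 and 438 CPM against 272 and 192, 2.52-fold higher, and RRM2 at 338 and 364 CPM against 272 and 110, 2.44-fold higher, and neither passed with DESeq2. TYMS also did not pass without uninjured replicate 2 or day 3 replicate 1. Among cells with 8 or more such counts, the mitotic sum was 14962 CPM uninjured, 7640 CPM at day 1 and 9442 CPM at day 3. Fewer genes of the kinetochore and spindle lists had counts at day 1. Of 21 spindle genes, 13 and 10 had counts in the other cells of day 1, against 18 to 20 in those of the uninjured and day 3 samples.

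Among the metabolic and translation genes, RPS12 and RPLP0, proteins of the ribosomal subunits, were at 5900 and 6844 CPM against 2343 and 3070, and at 6464 and 6224 CPM against 2581 and 3482, 2.20-fold and 1.93-fold higher. PGAM1, a glycolytic mutase, was at 1119 and 1077 CPM against 374 and 403, 2.76-fold higher. EIF4EBP1, which restrains cap-dependent translation, was at 201 and 256 CPM against 0 and 45.8, 6.39-fold higher. The count of 675 genes was 211 without uninjured replicate 2, 271 and 254 without day 3 replicate 1 or 2, and 235 with DESeq2.

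Day 3 against day 1 compared the cycling cells after injury. Of 2083 genes, 229 were higher (11.0%) and 169 lower (8.11%), with 146 higher and 237 lower by totals. Of 5 wound keratins and alarmins 5 were higher at day 3, of 16 ribosomal protein genes 12 were higher, and of 15 corneal differentiation genes 6 were lower. KRT14 was at 34060 and 32894 CPM against 1031 and 886, 34.9-fold higher. KRT19 was at 1192 and 1396 CPM against 107 and 205, 8.31-fold higher, and KRT16, a wound keratin, had 2481 counts against 1, a ratio of 283 with a counting interval of 50.8 to 11194. The day 1 cells were thus low in these keratins.

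PTGS2 was at 1226 and 1144 CPM at day 3 against 5509 and 7022 CPM at day 1, 5.31-fold lower, and HBEGF, a ligand of the EGF receptor, at 81.2 and 78.0 CPM against 426 and 920, 8.54-fold lower. CYP26B1 was at 64.1 and 26.0 CPM against 1279 and 1023, 26.3-fold lower, and SFN at 3623 and 3487 CPM against 6681 and 9988, 2.36-fold lower. RB1, the retinoblastoma protein that blocks entry into S phase, was at 158 and 145 CPM against 569 and 579, 3.803-fold lower. SPC25, a kinetochore subunit, was at 226 and 175 CPM at day 3 and at 0 at day 1, at least 3.81-fold higher. Only 14 and 11 of the 23 kinetochore genes had counts even in the other cells of day 1. Whether the 0 of SPC25 belongs to the cycling cells or to the day 1 tables was not tested. The count of 398 genes was 218 without day 1 replicate 2, 181 and 180 without day 3 replicate 1 or 2, and 153 with DESeq2.

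Whether the gap between cycling and other cells was itself different between days was tested as an interaction. Against the uninjured gap, 5 genes had a higher gap (0.0433% of 11539) and 59 a lower one (0.511%) at day 1, and 36 a higher (0.312%) and 47 a lower one (0.407%) at day 3. By totals the day 1 genes split into 18 higher and 22 lower. CKS2, a small subunit of the cyclin-dependent kinases, had a day 3 result that held under each alternative run. It was at 565 ± 17.5 CPM in cycling and 49.43 ± 1.501 CPM in other cells uninjured, and at 556 ± 21.2 against 190 ± 3.79 CPM at day 3 (SD, n = 2). The gap differed by -1.96 on the log2 scale (adjusted p = 6.75e-16), with the other cells higher at day 3 and the cycling cells near their uninjured level. At day 1 the tubulin TUBA1C was at 935 ± 120 CPM in cycling and 1035 ± 21.4 CPM in other cells, against 743 ± 79.9 and 194 ± 4.77 CPM uninjured, a difference in gap of -2.13 that also held under each alternative.

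The KRT12 gap at day 3 differed from the uninjured gap by -1.73 ± 0.20, with 2959 ± 487 CPM in cycling and 12736 ± 200 CPM in other cells against 10442 ± 226 and 13608 ± 273 CPM uninjured. Within the same leading keratin this difference was -0.39 (adjusted p = 0.772 by the interaction test). Here that means KRT12-led cells when uninjured and KRT14-led cells at day 3. These cells were kept by their own KRT12 and KRT14 counts, so the value cannot tell whether the KRT12 gap depends on keratin state. APOBEC3A, a cytidine deaminase of innate defence, was at 436 ± 105 CPM in cycling and 16348 ± 146 CPM in other cells at day 1, against 162 ± 175 and 546 ± 19.99 CPM uninjured, a difference in gap of -3.88 that did not pass without uninjured replicate 2 (-1.43). DST, a hemidesmosome linker, had a gap that differed by 2.05 at day 1 and 1.53 at day 3, with levels in other cells of 755 ± 48.6 CPM uninjured, 191 ± 1.97 CPM at day 1 and 427 ± 16.5 CPM at day 3. It did not pass at day 1 without day 1 replicate 2, nor at day 3 without day 3 replicate 1 or within the same leading keratin. Without uninjured replicate 2 the day 1 count was 16 and the day 3 count 37. Without day 1 replicate 1 or 2 the day 1 count was 21 or 40, and without day 3 replicate 1 or 2 the day 3 count was 22 or 26.

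Of the isoform classes, full splice matches, incomplete splice matches and new combinations of known splice sites were tested between cycling and other cells. None passed (adjusted exact permutation p = 0.844, 0.281 and 0.281). Full-length matches to known transcripts were 60.8 and 61.3% of isoform counts in uninjured cycling cells against 61.2 and 62.6% in other cells, 62.2 and 77.6% at day 1 against 62.6 and 78.8%, and 85.2 and 82.5% at day 3 against 82.1 and 81.2%. The share was higher in cycling cells of 2 of 6 samples (exact permutation p = 0.844). Levels cannot be compared across days or between the day 1 samples, since the isoform tables used different naming systems. In day 1 cycling cells, incomplete splice matches were 6.43% of isoform counts in replicate 1 and 0.435% in replicate 2. At day 3 the isoform tables held only 14 of 63 and 13 of 74 cycling cells (22.2 and 17.6%) but 66.5 and 67.0% of other cells, so the day 3 values rest on few cycling cells.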

How the data were processed

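Gene tables of 6 samples were used, with whole-number counts per gene and cell as the authors deposited them. Cell Ranger is named without a version in the submitters' processing notes. Not given in the sources used here: the aligner, the genome build, and whether gene counts came from short or long reads. The tables hold 14623 genes, of which 2158 have only an Ensembl identifier. Isoform tables, also deposited as counts, were used only for isoform classes. Totals were between 3733442 and 4928103 counts per sample.

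Cells were kept as deposited. Scrublet (scanpy 1.11.5, Python 3.11.15, scipy 1.17.1) called 61 cells doublets (0.773%), which were kept and left out in an alternative. Counts were summed over cycling and other cells of each sample, without the 12 selecting genes, and tested with edgeR 4.0.16 (R 4.3.3): filterByExpr, TMM scaling, the quasi-likelihood test and Benjamini-Hochberg adjusted p-values with a threshold of 0.05. The sample was a block in the comparison of cycling with other cells and in the interaction. Every adjusted p in the text is edgeR's unless DESeq2 (1.42.0) is named. Deviations of same-numbered samples had correlations of -0.0532, 0.0477 and -0.00449, which cannot decide on a pairing with sums of so few cells.

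Named genes were, in each of 31 lists, up to 5 called members with the largest change (2 in day comparisons). Added to them were the 10 highest and lowest called genes (5 in day comparisons) with one direction in all samples and a mean log2 CPM not under 5. All listed keratins were named too. For the interaction the 10 largest plus called list members were named. Left out there were genes with 3 or fewer counts, both samples summed, in the cycling or the other cells of either group compared. The members and lists were chosen with earlier results of these data known. Alternatives were other scalings, DESeq2, no filter on low counts, 2 or 5 selecting counts, cells of at least 500 counts, near-depth cells, no doublets and leaving out each sample. Comparisons within one leading keratin were added after seeing the data. They kept KRT12-led cells of the uninjured and day 1 samples and KRT14-led cells of day 3. The day 3 interaction in this setting thus compares different keratin states, and keratins in it were sorted by their own counts.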

Additional observations from a re-analysis of the deposited data

Results flagged for a closer look

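Genes whose gap between cycling and other cells differed between injured and uninjured samples by the interaction test are given here as differences in log2 change, with no explanation. At day 1 the gap differed for TUBA1C by -2.13, TUBA1A by -1.07, TUBB4B by -1.30 and CKS2 by -1.39. It differed for the keratins KRT24 by -1.90, KRT14 by -1.35 and KRT19 by -1.94, for S100A2 by -2.13, APOBEC3A by -3.88, TIMP1 by -2.95 and ITGA2 by -1.65. It was higher for DST by 2.05, CXCL14 by 1.49 and LYZ by 3.25, and the LYZ value was -0.90 without the cell called a doublet.

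At day 3, cell cycle genes with a lower gap were CKS2 (-1.96), STMN1 (-1.13), ARHGAP11A (-3.54), CDKN3 (-1.97), ZWINT (-2.09), TACC3 (-2.43), ECT2 (-2.13) and H2AZ2 (-0.75), and those with a higher gap were H2AX (2.32) and CKS1B (0.92). Among other genes it was lower for KRT24 (-2.94), KRT12 (-1.73), PTGS2 (-1.04), KLF6 (-0.98), LY6G6C (-5.35), CST6 (-3.10) and NDRG2 (-2.88). It was higher for DST (1.53), KRT4 (1.66), MYC (1.23), DCN (0.91), AREG (1.41), NCL (0.99), EIF4A1 (0.80) and ANKRD37 (2.69).

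In the isoform tables, cells that have no counterpart in the gene tables held 3 with at least 3 selecting counts in day 3 replicate 1 and 2 in day 3 replicate 2.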

How the results depend on the processing

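Counts of genes past the threshold varied more than directions. With DESeq2 they were 878 for cycling against other cells, 68, 235 and 153 for day 1 and day 3 against uninjured and day 3 against day 1, and 30 and 34 for the interactions at day 1 and day 3. With 2 selecting counts day 1 gave 345, day 3 gave 1127, and the interactions 165 and 185. Within one leading keratin, 1058 genes passed for cycling against other cells and 39 and 42 for the interactions, by totals the day 1 interaction gave 40, and KRT12-led cells gave 124 at day 1. Leaving out 1 sample gave 1118 to 1599 genes for cycling against other cells, 59 to 209, 211 to 939 and 180 to 504 for the day comparisons, and 16 to 76 and 22 to 91 for the interactions; filters change the number of genes tested.

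Whether equal replicate numbers pair the samples could not be decided, since some sums held only 8 or 9 cells. With a replicate block the day comparisons gave 189, 629 and 389 genes.

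The day 3 share was 4.27% thinned, 8.37% with 2 and 4.91% with 5 selecting counts, that of day 1 0.732% and 0.479%, and that of the uninjured samples 1.45% thinned and 2.16% with 2 counts. The KRT12-led uninjured share was 2.65% with 2 counts. The KRT14-led share was 5.46% thinned when uninjured, and 8.04% thinned or 14.99% with 2 counts at day 3.

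Some named genes changed direction, and the cause was not tested. In cycling against other cells these were KRT15 (0.024), LYZ (0.45) and KRT14 (0.051) within one keratin, KRT14 by totals (0.14) and at near depth (0.74), GPHA2 with DESeq2 (0.76) and 2 counts (0.32), FN1 with DESeq2 (2.96), and KRT17 with DESeq2 (-0.23), no filter (-0.054), 5 counts (-0.013) and leaving out 1 sample (-0.20 to 0.31). In the day comparisons they were KRT19 among KRT12-led cells (0.24) and KRT4 at day 3 with 2 counts (-2.06). In the day 1 interaction they were KRT24 with DESeq2 (0.50), 5 counts (2.33), within one keratin (2.18) and leaving out 1 sample (-2.67 to 11.04), LYZ with 2 counts (-0.13), no doublets (-0.90) and leaving out 1 sample (-0.15 to 11.22), KRT14 (0.97) and KRT19 (1.83) within one keratin. In that of day 3 they were KRT24 with 5 counts (1.84), within one keratin (3.93) and leaving out 1 sample (-3.46 to 10.00), KRT4 with 2 counts (-2.265) and within one keratin (-0.35), DCN at near depth (-0.33) and within one keratin (-0.54), and CST6 within one keratin (0.28) and leaving out 1 sample (-3.74 to 7.58).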

Other observations

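The day 3 isoform tables held a smaller share of KRT14-led cycling cells than of other KRT14-led cells. They held 13 of 59 (22.0%) and 11 of 66 (16.7%) of the former and 72.8 and 71.0% of the latter. Cycling cells in the isoform tables had a median of 3146 and 3307 counts in the gene tables, against 5339 and 5199 for those outside, and for other cells the medians were 3652 and 3502 against 5538 and 5421. In day 1 replicate 2 the isoform table held 7 of 8 cycling cells and 97.5% of other cells, and in the 3 remaining samples it held every cell.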
